A study of Mus musculus with 8 samples.

Results

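Complement and coagulation genes are described here as 41 named genes among the 24982 genes of the deposited count table. They were chosen by name, though with earlier results of these data known, and all 41 are in the table. Of these, 6 are known products of macrophages: C1qa, C1qb, C1qc, Cfp, C3ar1 and C5ar1. Another 33 are plasma proteins made mainly by hepatocytes, of which C2, C3, C4b, Cfb, Serping1 and F10 are also known to be made by macrophages or other cells. The remaining 2, F3 and Cfd, belong mainly to other cell types.

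The RNA was ribosome-associated RNA from mouse liver, in 8 libraries that form 4 groups of 2, and the labels give the cell type as myeloid. All mice carried LysM-Cre and the RiboTag allele, in which Cre switches on an epitope tag on ribosomes, and the tagged ribosomes are pulled out of whole tissue. LysM (Lyz2) drives Cre in macrophages, monocytes and neutrophils, not in hepatocytes. LysM-Cre:Ribotag animals (here wild type) gave 1 control group and 1 group in which the bile duct had been tied off for 17 days. This operation, bile duct ligation (BDL), stops bile flow. LysM-Cre:Hmoxflfl:Ribotag mice, which also carry floxed Hmox1 (the heme oxygenase-1, HO-1, gene), gave the same 2 groups. From this genotype their libraries are called labelled HO-1 deleted, or labelled-deleted. Ages are not given in the sources used here, and nothing says whether the libraries of a group came from separate animals. The p-values then measure only the spread between these samples, which may be technical.

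Total counts ran from 9807364 to 40892211 per library, of which the ribosomal RNA precursor RN45S took 10.3% to 66.8%. The highest RN45S share was in BDL labelled HO-1 deleted replicate 2, which kept 3254357 other counts. Levels are CPM, counts scaled to one library size with trimmed means of M-values (TMM). Hmox1, the targeted gene, was at 6.22 and 7.46 CPM in wild-type controls and 26.0 and 24.0 CPM after BDL. In the libraries labelled HO-1 deleted it was at 22.5 and 29.9 CPM in controls and 72.3 and 95.5 CPM after BDL, higher and not lower than in wild type (log2 fold change 1.94 ± 0.24, adjusted p = 0.00434 in controls and log2 fold change 1.74 ± 0.24, adjusted p = 0.0191 after BDL by edgeR). Lyz2, the Cre locus, had 242 to 934 counts in wild-type libraries and 3 to 10 counts in those labelled deleted. By Xist (667 CPM) and Ddx3y (0 counts), replicate 1 of the wild-type BDL group was female, and Xist was at 0 to 0.382 CPM in the other 7 libraries. Macrophage markers other than Lyz2 (6 genes) summed to 231 to 489 CPM over all libraries, against 28865 to 51595 CPM for 17 hepatocyte markers in BDL labelled deleted and 50689.6 to 56789 CPM in wild-type controls. Input RNA was not analysed here, so the share of each library that came from untagged hepatocytes was not measured.

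Complement is a cascade of plasma proteases. C1q binds antibody on a surface, mannose-binding lectins bind microbial sugars, and both lead through C2 and C4 to cleavage of C3. Factor B and properdin amplify that step, and C5 to C9 then build a pore in the target membrane, while the released fragments of C3 and C5 act on the receptors encoded by C3ar1 and C5ar1. Coagulation runs from tissue factor or the contact factors to thrombin, which turns fibrinogen into fibrin, and plasmin later dissolves the clot. The liver makes most of these plasma proteins, and several of them are acute-phase proteins whose genes respond to interleukin-6.

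The stretches of sequence before the starts of the fibrinogen genes, C3 and the C1q genes are shown as examples of hepatocyte-made genes that did not fall after BDL and of macrophage-made genes. They come from a RefSeq table of promoters (build GRCm38.p6), which held 31 of the 41 genes. Each is written 5′ to 3′ on the gene's own strand and ends at the RefSeq start or, for Fga and C1qc, where the GENCODE gene model begins. Capitals mark matches, on either strand, to any of these motifs: GTTAAT (HNF1), TTCNNNGAA (STAT), CTGGGAA (IL-6 type II), TTGCNNAA (C/EBP) and GAGGAA (PU.1).
Fgg: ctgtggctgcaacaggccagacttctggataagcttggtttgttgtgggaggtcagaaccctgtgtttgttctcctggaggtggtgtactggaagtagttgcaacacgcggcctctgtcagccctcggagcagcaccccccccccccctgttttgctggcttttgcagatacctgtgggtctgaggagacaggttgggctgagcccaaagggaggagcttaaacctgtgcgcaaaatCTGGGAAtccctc
Fga: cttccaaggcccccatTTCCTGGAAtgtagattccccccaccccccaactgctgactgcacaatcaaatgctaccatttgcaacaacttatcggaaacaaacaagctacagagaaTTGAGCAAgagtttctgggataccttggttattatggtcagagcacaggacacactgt
Fgb: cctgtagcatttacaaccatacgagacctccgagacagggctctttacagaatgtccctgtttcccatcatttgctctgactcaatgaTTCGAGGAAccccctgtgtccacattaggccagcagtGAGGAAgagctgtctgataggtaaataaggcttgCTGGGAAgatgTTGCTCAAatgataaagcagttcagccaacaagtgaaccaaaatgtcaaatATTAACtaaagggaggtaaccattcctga
C3: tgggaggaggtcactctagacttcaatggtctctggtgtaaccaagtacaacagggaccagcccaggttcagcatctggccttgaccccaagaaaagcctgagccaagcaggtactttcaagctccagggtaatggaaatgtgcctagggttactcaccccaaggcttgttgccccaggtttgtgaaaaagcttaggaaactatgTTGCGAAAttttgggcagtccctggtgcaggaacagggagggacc
C1qb: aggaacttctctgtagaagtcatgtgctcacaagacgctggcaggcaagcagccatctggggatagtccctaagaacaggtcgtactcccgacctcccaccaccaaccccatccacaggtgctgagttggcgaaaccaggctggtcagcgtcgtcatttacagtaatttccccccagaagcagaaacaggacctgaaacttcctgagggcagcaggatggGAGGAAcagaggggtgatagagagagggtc
C1qc: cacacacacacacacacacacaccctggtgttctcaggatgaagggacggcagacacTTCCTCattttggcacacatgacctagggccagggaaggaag

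The Fgg stretch is chr3:83007474-83007723 (plus strand), that of Fga chr3:83025903-83026075 (plus strand) and that of Fgb chr3:83049864-83050113 (minus strand). For C3 it is chr17:57228137-57228386 (minus strand), for C1qb chr4:136886201-136886450 (minus strand) and for C1qc chr4:136893066-136893164 (minus strand). Fgb held 6 matches in its 250 bases, among them a STAT match that overlaps a PU.1 match, and it was the only one of these 6 genes with all 5 motifs. Fga held a STAT and a C/EBP match, and an HNF1 motif that lies past the printed stretch, while Fgg held only the IL-6 type II motif and C3 only the C/EBP motif. Each of C1qb and C1qc held a PU.1 match and none of the other 4 motifs. Of all 32851 promoters in the table, cut to the same 250 bases, 6.43% held the HNF1 motif, 7.02% the STAT motif, 9.10% the IL-6 type II motif, 9.56% the C/EBP motif and 23.3% the PU.1 motif. Among 25 promoters of hepatocyte-made members, the HNF1 motif was in 6, STAT in 5, IL-6 type II in 4, C/EBP in 7 and PU.1 in 2. Among 5 promoters of macrophage-made members, PU.1 was in 2, the HNF1 motif in 1 and the other 3 motifs in 0. These are matches of letters, and binding was not measured.

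Levels of different genes were compared on the authors' FPKM, which is per transcript length. In wild-type controls the fibrinogen chains led, with Fgg at 1576 ± 447, Fgb at 1557 ± 65.1 and Fga at 1175 ± 211 FPKM (mean ± SD, n = 2), where Fgg overlapped both of the others and Fgb lay above Fga in both libraries. C3, the central complement protein, came next at 965 ± 37.6 FPKM, followed by Plg (plasminogen) at 658 ± 7.44 and F2 (prothrombin) at 475 ± 87.5 FPKM. The macrophage-made genes stood near the bottom of the 41: C1qa was at 16.4 ± 2.23, C1qc at 11.5 ± 0.613, C1qb at 9.62 ± 0.785 and Cfp at 5.27 ± 0.115 FPKM. The receptor genes C3ar1 (0.243 ± 0.0137 FPKM) and C5ar1 (0.125 ± 0.0541 FPKM) were lower still. After BDL, C3 was the highest of the 41 genes in both genotypes, at 2049 ± 208 FPKM in wild type and 1536 ± 704 FPKM in the libraries labelled HO-1 deleted. In the latter group the SD of C3 reached Fgb, the next gene, at 886 ± 126 FPKM. Both C3 libraries (2034 and 1039 FPKM) still lay above both Fgb libraries (975 and 796 FPKM). Cfd, which encodes the adipocyte-made protease factor D, had 2 counts in each wild-type control and 0 in the other 6 libraries, and was left out of the tests, so 40 genes were tested.

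The comparison of BDL with control asks how 17 days of cholestasis changes the captured RNA. In wild-type mice, C3 and the 2 anaphylatoxin receptor genes rose, and 7 genes fell: 3 terminal complement genes (C8b, C8g and C9), 2 of the lectin pathway (Mbl1 and Masp2) and 2 of the contact and intrinsic path of clotting (F11 and Klkb1). A call is an adjusted p under 0.05 by edgeR's quasi-likelihood test. The 3 members called higher are of 40, where 11.8% of all 14147 genes tested were called higher, and the 7 called lower are of 40, where 6.59% of all genes were. In the libraries labelled HO-1 deleted, 5 members rose (C1qa, C1qc, C3, C3ar1 and C5ar1) and 12 fell (C6, C8a, C8b, C9, Hc, Mbl1, Mbl2, Masp2, F5, F9, F11 and Klkb1), where 15.1% of all genes were called higher and 12.4% lower. Without regard to calls, 7 members in wild type and 7 in labelled-deleted libraries had both BDL libraries above both controls, where 31.5% and 31.9% of all genes did. Both BDL libraries lay below both controls for 21 and 18 members, where 29.8% and 34.3% of all genes did. Of the 40, 3 rose in both genotypes, 6 fell in both, 9 were called in 1 genotype and 22 in neither, and no member was called in opposite directions. The median log2 fold change of the 40 was -0.35 in wild type and -0.36 in labelled-deleted libraries, against 0.017 and -0.025 for all genes.

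These counts depended on the scaling and on single libraries. With scaling by total counts, 1 member was called higher and 1 lower in wild type, and 1 higher and 4 lower in labelled-deleted libraries, while on the authors' FPKM (pseudocount 1) 0 were higher and 2 lower, and 0 higher and 4 lower. That FPKM fit kept only genes with a mean FPKM of at least 1. It tested 37 members and left out C3ar1 and C5ar1, which therefore could not be called. The wild-type count was 3 without wild-type control replicate 1, 6 without control replicate 2, 5 without the female BDL replicate 1 and 4 without BDL replicate 2. In labelled-deleted libraries it was 8 without control replicate 1, 11 without control replicate 2 and 11 without BDL replicate 1, and 11 and 11 without wild-type control replicates 1 and 2. The calls that held without each library in turn were C3ar1, C5ar1 and F11 in wild type, and C1qc, C5ar1, C8a, C8b, F11 and Klkb1 in labelled-deleted libraries.

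**Figure D1:**
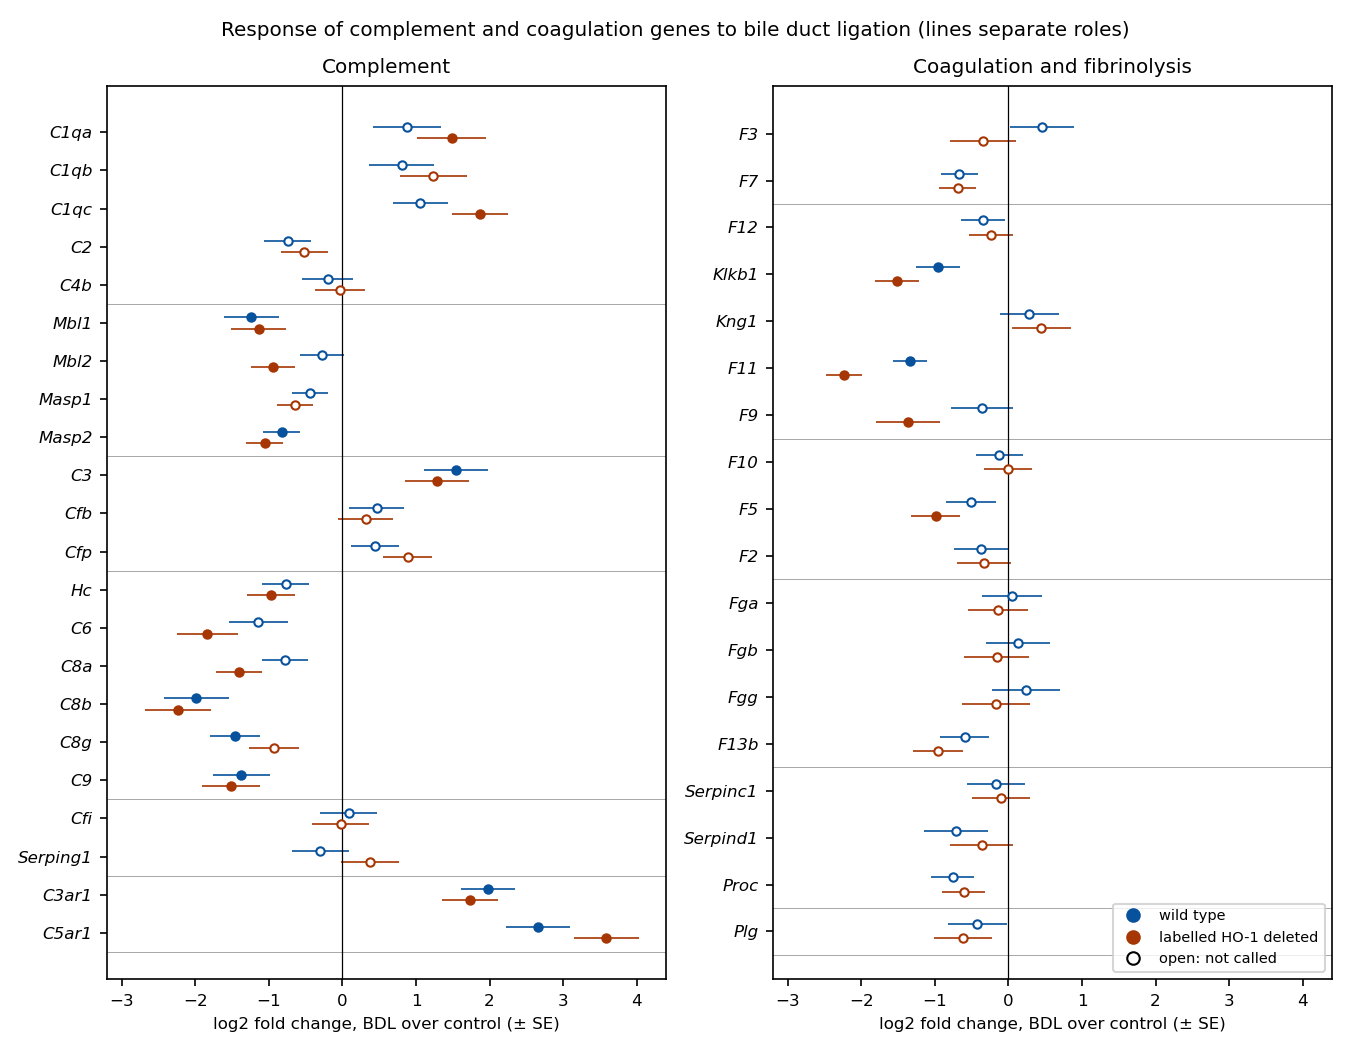
Log2 fold change of BDL over control, with SE, for the 40 tested genes grouped by role (blue for wild type, brown for libraries labelled HO-1 deleted, filled where called by edgeR). The receptor genes and C3 lie to the right, all 6 terminal components and all 4 lectin pathway genes to the left, and the 3 fibrinogen chains within 0.24 of 0.

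Macrophage-made members had higher mean levels after BDL, with the receptors called in both genotypes. C5ar1 encodes the receptor for C5a, which draws in and activates myeloid cells. It was at 0.565 and 0.322 CPM in wild-type controls and 3.22 and 2.40 CPM after BDL (log2 fold change 2.66 ± 0.43, adjusted p = 0.00196). Labelled-deleted libraries had 0.342 and 0.593 CPM in controls against 5.53 and 6.42 CPM after BDL (log2 fold change 3.59 ± 0.44, adjusted p = 0.000317). Every BDL library lay above every control library, and this was the largest rise among the 40 genes in both genotypes. C3ar1, the receptor for C3a, was at 1.48 and 1.35 CPM in wild-type controls and 6.43 and 4.70 CPM after BDL (log2 fold change 1.98 ± 0.37, adjusted p = 0.00402). Labelled-deleted libraries had 1.15 and 2.03 CPM in controls and 4.60 and 6.65 CPM after BDL (log2 fold change 1.74 ± 0.38, adjusted p = 0.00703), again with no overlap between BDL and control. This last call was lost on leaving out labelled-deleted control replicate 1 (adjusted p = 0.0667).

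The 3 chains of C1q, which join into the recognition molecule of the classical pathway, lie within 1 cluster on chromosome 4 (C1qb from 136880129, C1qa to 136898803, mm10). In wild type C1qa was at 22.7 and 19.4 CPM in controls and 49.0 and 28.1 CPM after BDL, C1qb at 14.1 and 12.4 CPM in controls against 31.9 and 14.1 CPM after BDL, and C1qc at 14.7 and 13.7 CPM in controls against 34.1 and 25.0 CPM after BDL. C1qa and C1qc did not overlap between the groups and C1qb did, and 0 of the 3 were called (adjusted p = 0.233, 0.253 and 0.0755 for C1qa, C1qb and C1qc). Of all genes tested in wild type, 31.5% had both BDL libraries above both controls. In labelled-deleted libraries C1qa was at 16.9 and 48.9 CPM in controls against 73.3 and 113 CPM after BDL (log2 fold change 1.49 ± 0.47, adjusted p = 0.0445) and C1qc at 12.5 and 25.8 CPM in controls against 48.9 and 93.7 CPM after BDL (log2 fold change 1.87 ± 0.38, adjusted p = 0.00562), and both rose. C1qb was at 12.7 and 26.9 CPM in controls against 35.6 and 59.2 CPM after BDL (log2 fold change 1.24 ± 0.45, adjusted p = 0.0686, not called). All 3 chains were separated between BDL and control in these libraries, where 31.9% of all genes were separated in this direction. The C1qa call was lost on leaving out any library but wild-type BDL replicate 1, wild-type BDL replicate 2 and labelled-deleted control replicate 2 (adjusted p 0.0725 to 0.213), and the C1qc call held without each library. Cfp encodes properdin, which stabilises the alternative pathway convertase. It was at 12.5 and 13.4 CPM in wild-type controls and 22.6 and 12.6 after BDL, which overlap, and at 14.9 and 17.2 CPM in controls against 21.0 and 39.7 CPM after BDL in labelled-deleted libraries (log2 fold change 0.88 ± 0.33, adjusted p = 0.0666, not called).

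**Figure D2:**
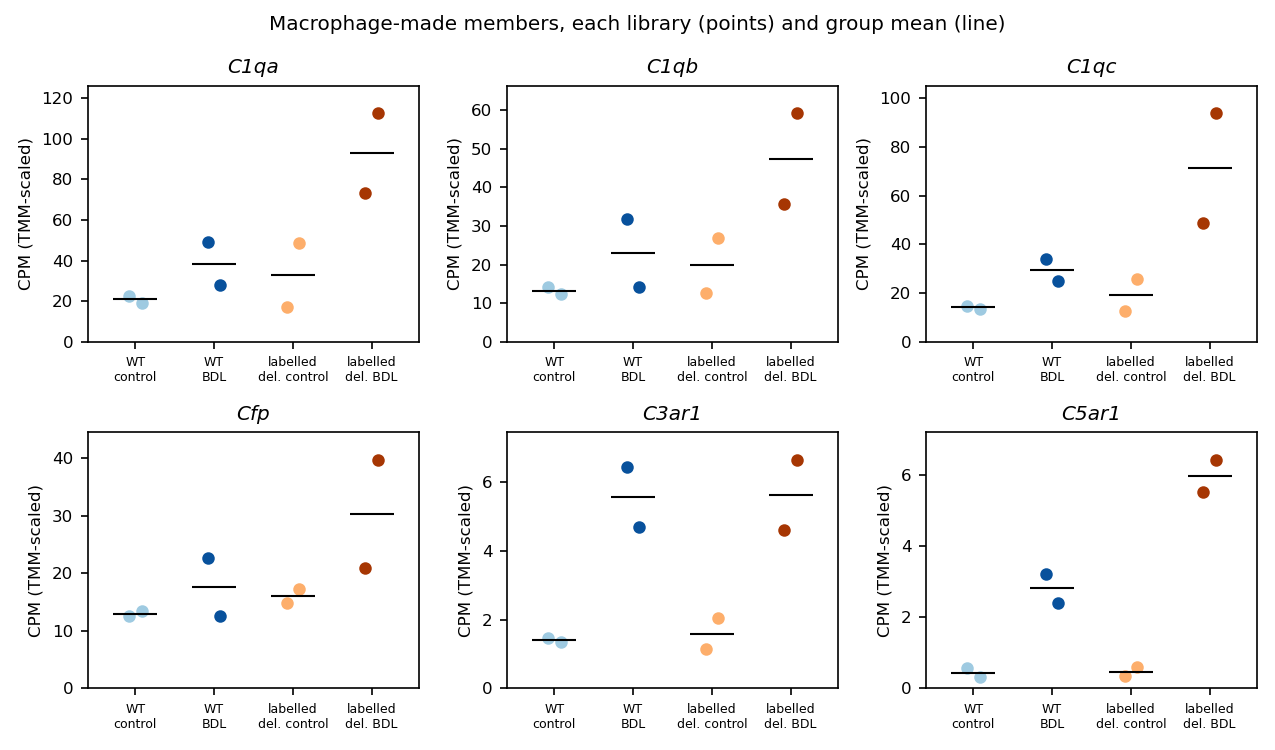
CPM of the 6 macrophage-made genes in each library (points) with the mean of 2 libraries (line), by group. C3ar1 and C5ar1 stand apart between control and BDL in both genotypes, while for each C1q chain both BDL libraries labelled HO-1 deleted lie above the other 6.

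Cell markers differed in the same comparisons. The 8 Kupffer cell markers, all with counts in every library, summed to 219.8 to 289 CPM in wild-type controls, 356 to 473 after BDL, 299 to 359 in controls labelled deleted and 411 to 798 after BDL. Single markers differed in direction: 1 was called higher and 0 lower in wild type, and 3 higher and 1 lower in labelled-deleted libraries. Of all genes, 11.8% were called higher and 6.59% lower in wild type, and 15.1% and 12.4% in labelled-deleted libraries. The 7 monocyte markers summed to 4.27 to 5.08 CPM in wild-type controls, 20.1 to 26.3 after BDL, 5.77 to 6.12 in controls labelled deleted and 31.0 to 38.1 after BDL, with Ly6c2 at 0 in 1 BDL library labelled deleted. The 8 neutrophil markers summed to 1.44 to 1.67 CPM in wild-type controls and 4.64 to 13.04 after BDL. In libraries labelled deleted they summed to 1.84 to 2.27 CPM in controls and 7.20 to 10.2 after BDL. Some had 0 counts in single libraries, among them Ly6g and Camp in BDL labelled deleted replicate 2. Of 5 tested, 3 were called higher and 0 lower in each genotype, and 1 had a negative log2 fold change (-3.16) in labelled-deleted libraries. Per 100 counts of the Kupffer markers, the 6 macrophage-made members had 22.9 and 27.5 counts in wild-type controls, 31.1 and 24.4 after BDL, 19.5 and 33.8 in controls labelled deleted and 46.0 and 39.8 in BDL labelled deleted. Per 100 counts of 7 general macrophage markers they had 24.4 and 23.5 in wild-type controls and 34.9 and 33.1 after BDL, without overlap, and 25.3 and 48.3 in controls labelled deleted and 49.99 and 65.0 after BDL, where Lyz2, 1 of the 7, was near 0. In these libraries more cells of a type and more RNA per cell cannot be told apart, and the part of the markers in the result was not tested.

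Among hepatocyte-made members C3 was the only one that rose. It was at 7184 and 6714 CPM in wild-type controls and 22615 and 17901 CPM after BDL (log2 fold change 1.54 ± 0.44, adjusted p = 0.0306), a 2.92-fold difference. In labelled-deleted libraries it was at 7137 and 9974 CPM in controls against 19087 and 22503 CPM after BDL (log2 fold change 1.28 ± 0.44, adjusted p = 0.0480), 2.43-fold. All 4 BDL libraries lay above all 4 controls, but the call was lost in wild type on leaving out any library but labelled-deleted control replicate 2, labelled-deleted BDL replicate 1 and labelled-deleted BDL replicate 2 (adjusted p 0.0502 to 0.221), and in labelled-deleted libraries on leaving out any library but labelled-deleted BDL replicate 1 (adjusted p 0.0607 to 0.269). Of 12 acute-phase genes that are not members, 5 rose and 0 fell in wild type and 6 rose and 0 fell in labelled-deleted libraries, where 11.8% and 15.1% of all genes were called higher. The summed level of these 12 genes was 6114 to 7357 CPM in controls against 11195 to 13365 CPM after BDL in wild type, and 9657 to 9685 CPM in controls against 15611 to 26529 CPM after BDL in labelled-deleted libraries. The part of this response in the C3 result was not tested. Cfb, which encodes factor B, the partner of C3b in the alternative convertase, was at 869 and 625 CPM in wild-type controls and 1137 and 927 after BDL, without overlap, but was not called (log2 fold change 0.47 ± 0.37, adjusted p = 0.429). In labelled-deleted libraries the Cfb levels of 821 and 1191 CPM in controls against 909 and 1594 CPM after BDL overlapped (log2 fold change 0.31 ± 0.37, adjusted p = 0.557).

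C2 and C4b carry the classical and lectin pathways on to C3. C2 was at 147 and 71.6 CPM in wild-type controls and 68.3 and 61.8 after BDL (log2 fold change -0.75 ± 0.32, adjusted p = 0.128), and C4b at 2065 and 2301 CPM in controls against 1696 and 2102 CPM after BDL (log2 fold change -0.20 ± 0.34, adjusted p = 0.734). In labelled-deleted libraries C2 had a log2 fold change -0.52 ± 0.32, adjusted p = 0.243, and C4b a log2 fold change -0.036 ± 0.34, adjusted p = 0.950. Neither gene was called. C4b has a near-identical neighbour, C4a, and C2 lies 86 bases from Cfb with a gene model that spans both, so reads may be shared within these pairs.

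All 4 genes of the lectin pathway were lower after BDL in both genotypes, 2 of them called in wild type and 3 in labelled-deleted libraries, where 6.59% and 12.4% of all genes were called lower. Mbl1 and Mbl2 encode the mannose-binding lectins. Mbl1 was at 132 and 113 CPM in wild-type controls and 75.2 and 28.8 after BDL (log2 fold change -1.24 ± 0.37, adjusted p = 0.0392). Labelled-deleted libraries had 166 and 137 CPM in controls against 61.8 and 76.0 CPM after BDL (log2 fold change -1.14 ± 0.37, adjusted p = 0.0421). The groups did not overlap in either genotype. Mbl2 was at 141 and 108 CPM in controls against 118 and 86.9 CPM after BDL in wild type, which overlap (log2 fold change -0.28 ± 0.30, adjusted p = 0.565, not called). Labelled-deleted libraries had 141 and 117 CPM in controls against 49.1 and 86.4 CPM after BDL (log2 fold change -0.94 ± 0.30, adjusted p = 0.0387). Masp2, the protease that cleaves C4 and C2, was at 190.2 and 159 CPM in controls against 94.98 and 102 CPM after BDL in wild type (log2 fold change -0.83 ± 0.25, adjusted p = 0.0419). Labelled-deleted libraries had 219 and 176 CPM in controls against 80.7 and 109 CPM after BDL (log2 fold change -1.06 ± 0.26, adjusted p = 0.0110). Its gene overlaps Tardbp on the other strand, and the strand used in counting is not given in the sources used here. Masp1, whose protease activates that of Masp2, was not called (log2 fold change -0.44 ± 0.25, adjusted p = 0.245 in wild type, and -0.64 ± 0.25, adjusted p = 0.0722 in labelled-deleted libraries).

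Leaving out single libraries ended these calls. In wild type the Mbl1 call was lost on leaving out any library but wild-type BDL replicate 1 (adjusted p 0.0509 to 0.187), and the Masp2 call on leaving out any library but labelled-deleted control replicate 1, labelled-deleted BDL replicate 1 and labelled-deleted BDL replicate 2 (adjusted p 0.0549 to 0.269). In labelled-deleted libraries the Mbl1 call was lost on leaving out any library but wild-type BDL replicate 1 and wild-type BDL replicate 2 (adjusted p 0.0588 to 0.228), the Mbl2 call on leaving out any library but wild-type BDL replicate 1, wild-type BDL replicate 2 and labelled-deleted BDL replicate 2 (adjusted p 0.0546 to 0.224), and the Masp2 call on leaving out labelled-deleted control replicate 1 (adjusted p = 0.0910) and on leaving out labelled-deleted BDL replicate 1 (adjusted p = 0.0653). The median of the 4 genes stayed below 0 over 17 alternatives, at -0.95 to -0.52 in wild type and -1.38 to -0.70 in labelled-deleted libraries.

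The terminal components, which form the membrane attack pore, were lower as a group. All 6 genes were lower in both BDL libraries than in both controls in each genotype, where 29.8% of all genes tested in wild type and 34.3% in labelled-deleted libraries were separated in this direction. In wild type 3 of 6 were called lower, and in labelled-deleted libraries 5 of 6, where 6.59% and 12.4% of all genes were called lower. The medians were -1.26 and -1.46. C8b, the beta chain of C8, differed most of the 6. It was at 429 and 286 CPM in wild-type controls and 95.1 and 84.9 after BDL (log2 fold change -1.99 ± 0.44, adjusted p = 0.0105), a 3.97-fold lower level, and at 267 and 424 CPM in controls against 39.6 and 109 CPM after BDL in labelled-deleted libraries (log2 fold change -2.23 ± 0.45, adjusted p = 0.00498), 4.70-fold lower. C8a, its partner chain, lies 11131 bases away on chromosome 4. It was at 940.5 and 801 CPM in controls against 548 and 466 CPM after BDL in wild type (log2 fold change -0.78 ± 0.31, adjusted p = 0.107, not called). Labelled-deleted libraries had 1029 and 1288 CPM in controls against 370.3 and 502 CPM after BDL (log2 fold change -1.41 ± 0.32, adjusted p = 0.00769). C8g, the third chain, was at 111 and 76.9 CPM in controls against 34.6 and 33.7 CPM after BDL in wild type (log2 fold change -1.46 ± 0.34, adjusted p = 0.0117), and 64.7 and 68.7 CPM in controls against 21.8 and 49.8 CPM after BDL in labelled-deleted libraries (log2 fold change -0.93 ± 0.34, adjusted p = 0.0608, not called).

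C9, which polymerises into the wall of the pore, was at 932 and 858 CPM in wild-type controls and 340.2 and 350.0 after BDL (log2 fold change -1.38 ± 0.39, adjusted p = 0.0307). Labelled-deleted libraries had 579.6 and 983 CPM in controls against 175 and 372 CPM after BDL (log2 fold change -1.52 ± 0.39, adjusted p = 0.0152). C6, which joins the growing complex after C5b, was at 605 and 358 CPM in controls against 140.4 and 295 CPM after BDL in wild type (log2 fold change -1.14 ± 0.41, adjusted p = 0.0730, not called). Labelled-deleted libraries had 476 and 547 CPM in controls against 107 and 179 CPM after BDL (log2 fold change -1.84 ± 0.41, adjusted p = 0.00797). Hc, the mouse gene for C5, was at 2155 and 1836 CPM in controls against 1141 and 1193 CPM after BDL in wild type (log2 fold change -0.77 ± 0.32, adjusted p = 0.119, not called). Labelled-deleted libraries had 1769 and 1950.4 CPM in controls against 1041 and 855 CPM after BDL (log2 fold change -0.97 ± 0.32, adjusted p = 0.0430). So C9 and C8b fell in both genotypes, while C8g was called only in wild type and C6, C8a and Hc only in labelled-deleted libraries, and the difference between genotypes was not called for any of them. Leaving out libraries ended several of these calls. In wild type the C8b call was lost on leaving out wild-type control replicate 1 (adjusted p = 0.0820) and on leaving out wild-type BDL replicate 2 (adjusted p = 0.0614), the C8g call on leaving out wild-type control replicate 1 (adjusted p = 0.105) and on leaving out wild-type BDL replicates 1 or 2 (adjusted p = 0.0538 and 0.0568), and the C9 call on leaving out wild-type control replicates 1 or 2 (adjusted p = 0.145 and 0.0964) and on leaving out wild-type BDL replicates 1 or 2 (adjusted p = 0.115 and 0.105). In labelled-deleted libraries the C6 call was lost on leaving out labelled-deleted BDL replicate 1 (adjusted p = 0.0703), the C9 call on leaving out labelled-deleted control replicate 2 (adjusted p = 0.108) and on leaving out labelled-deleted BDL replicate 1 (adjusted p = 0.0764), and the Hc call on leaving out any library but labelled-deleted BDL replicate 1 (adjusted p 0.0585 to 0.143). Over the 17 alternatives the median of the 6 genes was -1.65 to -0.95 in wild type and -1.98 to -1.14 in labelled-deleted libraries.

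**Figure D3:**
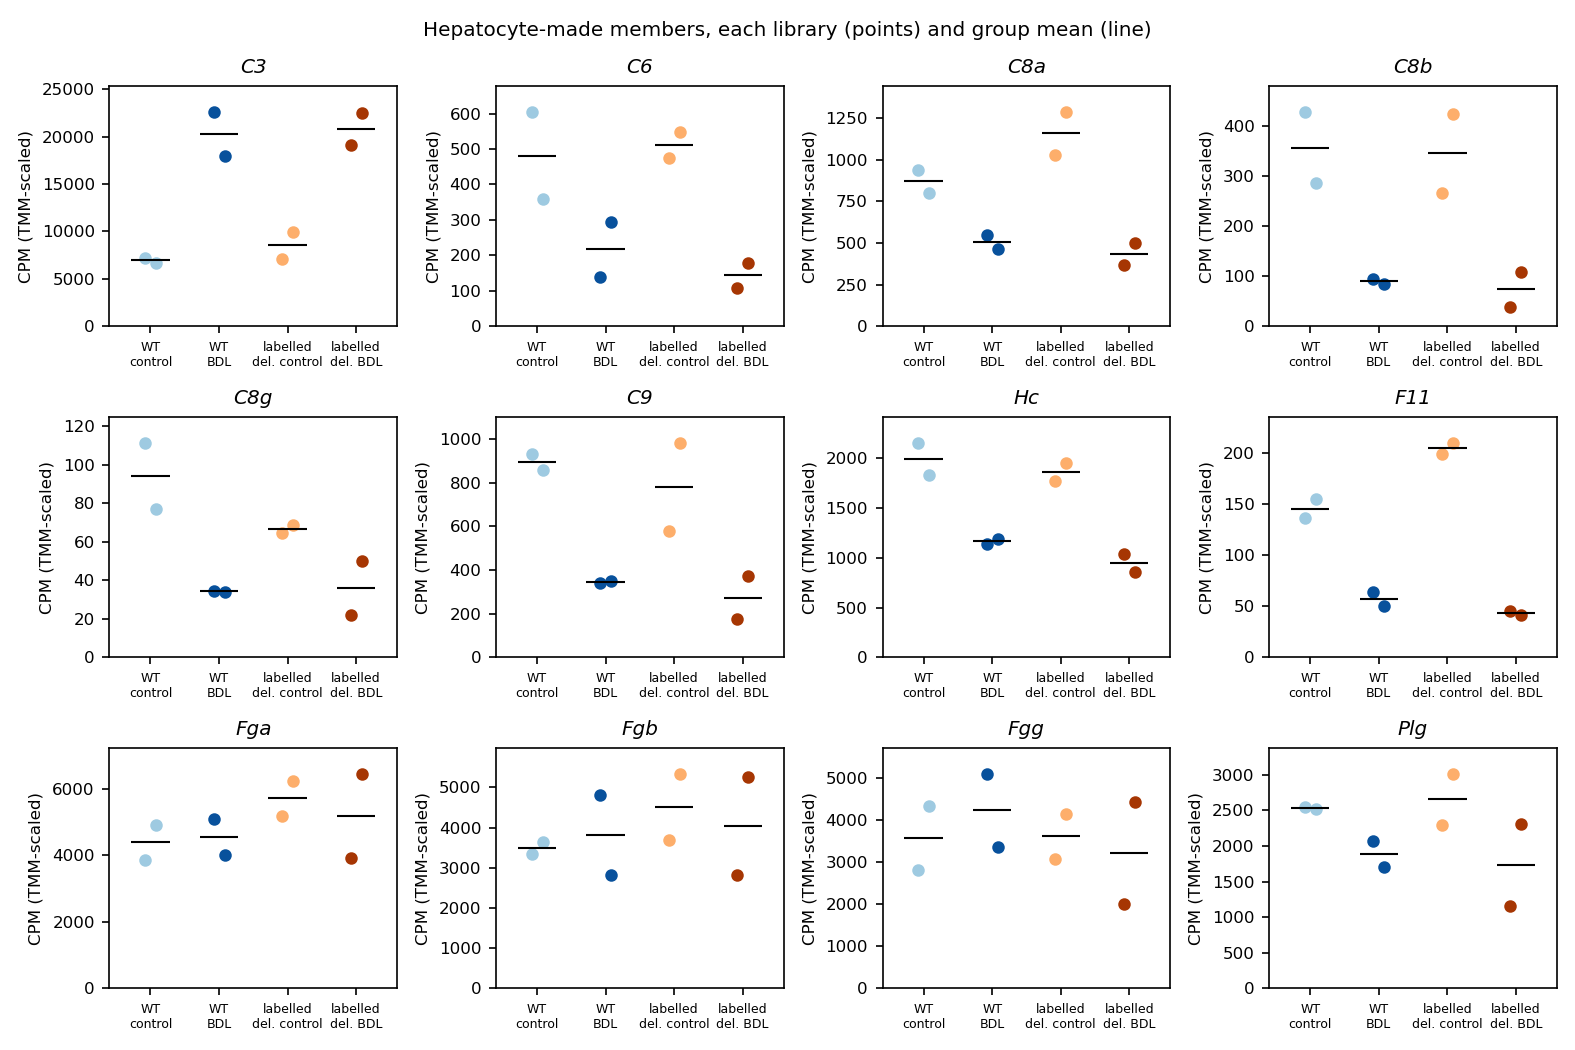
CPM of C3, the 6 terminal components, F11, the 3 fibrinogen chains and Plg in each library (points) with the mean of 2 libraries (line), by group. C3 is higher in every BDL library, the terminal components and F11 are lower in every BDL library, and the fibrinogen chains overlap between control and BDL.

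Of the inhibitors of complement, Cfi encodes factor I, which cuts C3b and C4b, and Serping1 encodes C1 inhibitor, which also blocks kallikrein. Cfi was at 505 and 444 CPM in wild-type controls and 608 and 399 after BDL (log2 fold change 0.087 ± 0.39, adjusted p = 0.904), and did not move beyond the spread in labelled-deleted libraries either (log2 fold change -0.025 ± 0.39, adjusted p = 0.970). Serping1 was at 320.3 and 304 CPM in controls against 265 and 242 CPM after BDL in wild type (log2 fold change -0.30 ± 0.39, adjusted p = 0.645). In labelled-deleted libraries it was at 329 and 385 CPM in controls and 250.4 and 678 CPM after BDL (log2 fold change 0.38 ± 0.39, adjusted p = 0.498), where the 2 BDL libraries lay on opposite sides of the controls.

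In the contact and intrinsic path of clotting, F11 and Klkb1 fell in both genotypes. F11, the zymogen of factor XI, had the smallest adjusted p of the 40 genes in labelled-deleted libraries. It was at 136 and 155 CPM in wild-type controls and 64.2 and 50.6 after BDL (log2 fold change -1.34 ± 0.23, adjusted p = 0.00266). Labelled-deleted libraries had 199 and 209.8 CPM in controls against 45.2 and 41.2 CPM after BDL (log2 fold change -2.24 ± 0.24, adjusted p = 0.000151). No BDL library reached a control. Klkb1, which encodes plasma prekallikrein and lies 4658 bases from F11 on chromosome 8, was at 261 and 210.2 CPM in controls against 137 and 105 CPM after BDL in wild type (log2 fold change -0.96 ± 0.30, adjusted p = 0.0439). Labelled-deleted libraries had 255 and 268 CPM in controls against 67.9 and 116 CPM after BDL (log2 fold change -1.52 ± 0.30, adjusted p = 0.00431). The wild-type Klkb1 call was lost on leaving out any library but labelled-deleted BDL replicate 1 and labelled-deleted BDL replicate 2 (adjusted p 0.0588 to 0.264). F9, the factor lacking in hemophilia B, overlapped between the groups in wild type at 143 and 72.8 CPM in controls against 94.8 and 73.2 CPM after BDL (log2 fold change -0.36 ± 0.42, adjusted p = 0.606), and fell in labelled-deleted libraries, with 159 and 181 CPM in controls against 37.8 and 96.4 CPM after BDL (log2 fold change -1.36 ± 0.43, adjusted p = 0.0407), a call lost on leaving out labelled-deleted control replicates 1 or 2 (adjusted p = 0.106 and 0.120) and on leaving out labelled-deleted BDL replicate 1 (adjusted p = 0.186). F12, which starts the contact path, and Kng1, the kininogen that carries prekallikrein, were not called in either genotype (log2 fold changes, F12 -0.34 ± 0.30 and -0.23 ± 0.30, Kng1 0.28 ± 0.40 and 0.45 ± 0.40). Kng1 has a near-identical copy, Kng2, that may share its reads.

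The tissue factor path held 2 genes. F3, tissue factor itself, was barely detected, at 1.16 and 0.900 CPM in wild-type controls and 1.23 and 1.64 after BDL, and 2.91 and 2.03 CPM in controls against 1.43 and 2.88 CPM after BDL in labelled-deleted libraries, with 13 to 96 counts per library and no call. F7, its plasma ligand, was at 79.1 and 56.6 CPM in controls against 39.9 and 45.4 CPM after BDL in wild type (log2 fold change -0.67 ± 0.25, adjusted p = 0.0889). Labelled-deleted libraries had 85.9 and 81.8 CPM in controls against 42.3 and 62.3 CPM after BDL (log2 fold change -0.69 ± 0.26, adjusted p = 0.0628), without overlap but not called. In the common path F5, the cofactor of factor Xa, was at 1066 and 1333 CPM in controls against 703 and 981 CPM after BDL in wild type (log2 fold change -0.51 ± 0.33, adjusted p = 0.328, not called) and fell in labelled-deleted libraries, with 936 and 1289 CPM in controls against 499 and 621 CPM after BDL (log2 fold change -0.99 ± 0.34, adjusted p = 0.0473). The F5 call was lost on leaving out any library but labelled-deleted BDL replicate 2 (adjusted p 0.0508 to 0.222). F10 (log2 fold change -0.13 ± 0.32 in wild type and -0.0045 ± 0.32 in labelled-deleted libraries) and F2 (log2 fold changes -0.37 ± 0.36 and -0.33 ± 0.36) were not called.

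The 3 fibrinogen chains, whose genes lie together on chromosome 3 between 83007724 and 83049863 (mm10), did not move beyond their spread. In wild type Fga was at 3871 and 4922 CPM in controls and 5084 and 4019.6 after BDL, Fgb at 3336 and 3638 CPM in controls against 4811 and 2821 CPM after BDL, and Fgg at 2799 and 4334 CPM in controls against 5092 and 3352 CPM after BDL. In labelled-deleted libraries the values were 5189 and 6239 CPM in controls against 3911 and 6453 CPM after BDL for Fga, 3699 and 5341 CPM in controls against 2812 and 5269.8 CPM after BDL for Fgb, and 3062 and 4144 CPM in controls against 1996 and 4412 CPM after BDL for Fgg. BDL and control overlapped for every chain in both genotypes. The log2 differences in wild type had 95% intervals of -0.83 to 0.93 for Fga, -0.83 to 1.09 for Fgb and -0.77 to 1.25 for Fgg, and in labelled-deleted libraries of -1.02 to 0.74, -1.12 to 0.80 and -1.18 to 0.84. Changes within these intervals were not excluded. The median of the 3 chains took either sign over the alternatives, from -0.34 to 0.47 in wild type and from -0.71 to 0.24 in labelled-deleted libraries. F13b, the carrier chain of the fibrin-crosslinking factor XIII, was lower without overlap in both genotypes but was not called (log2 fold change -0.59 ± 0.34, adjusted p = 0.253 in wild type, and -0.96 ± 0.34, adjusted p = 0.0538 in labelled-deleted libraries).

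The inhibitors of clotting and plasminogen were not called. Proc, which encodes protein C, the inactivator of factors V and VIII, was at 331 and 323 CPM in wild-type controls and 202 and 185 after BDL (log2 fold change -0.76 ± 0.29, adjusted p = 0.0954). Labelled-deleted libraries had 303 and 360.0 CPM in controls against 165 and 271 CPM after BDL (log2 fold change -0.61 ± 0.29, adjusted p = 0.139), without overlap in either. Serpinc1 (antithrombin) had log2 fold changes of -0.17 ± 0.39 and -0.10 ± 0.39, and Serpind1 (heparin cofactor II) of -0.71 ± 0.43 and -0.37 ± 0.43. Serpind1 overlaps Pi4ka, and C8g overlaps Fbxw5, on the other strand, so reads may be shared there too. Plg was at 2546 and 2517 CPM in wild-type controls and 2073 and 1703 after BDL (log2 fold change -0.42 ± 0.40, adjusted p = 0.508). Labelled-deleted libraries had 2294 and 3013 CPM in controls against 1151 and 2311 CPM after BDL (log2 fold change -0.62 ± 0.40, adjusted p = 0.267).

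Set side by side, macrophage-made and hepatocyte-made members had medians on opposite sides of 0 after BDL. Of the 6 macrophage-made genes, 2 were called higher and 0 lower in wild type, and 4 higher and 0 lower in labelled-deleted libraries, with median log2 fold changes of 0.97 and 1.61. Of the 33 hepatocyte-made genes, 1 was called higher and 7 lower in wild type, and 1 higher and 12 lower in labelled-deleted libraries, with medians of -0.44 and -0.62. Of all genes tested, 11.8% higher and 6.59% lower in wild type, and 15.1% and 12.4% in labelled-deleted libraries were called. The 27 hepatocyte-made genes other than the 6 named at the outset as also made elsewhere had medians of -0.59 and -0.93 and 0 called higher, and those 6 had -0.16 and 0.15. Scaling by total counts and the FPKM moved the median of all genes by -0.14 and -0.41 in wild type and by -0.28 and -0.16 in labelled-deleted libraries. Relative to all genes, the macrophage-made median stayed at 0.47 to 1.28 and 0.92 to 2.33, and the hepatocyte-made median at -0.75 to -0.32 and -0.97 to -0.21, over all 17 alternatives. The FPKM fits with a filter left out C3ar1 and C5ar1, so their macrophage-made median is over fewer genes.

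Within the summed counts of the 33 hepatocyte-made genes, C3 took 19.8 and 18.4% in wild-type controls and 43.9 and 43.4% after BDL, and 19.8 and 21.3% in controls against 49.8 and 40.04% after BDL in labelled-deleted libraries. This share does not depend on scaling between libraries. The fibrinogen chains held 27.6 and 35.4% in controls against 29.1 and 24.7% after BDL in wild type, and 33.1 and 33.6% in controls against 22.7 and 28.7% after BDL in labelled-deleted libraries. The other 29 genes held 52.6 and 46.2% in controls against 27.1 and 31.8% after BDL in wild type, and 47.1 and 45.1% in controls against 27.5 and 31.3% after BDL in labelled-deleted libraries. The macrophage-made genes had 1.82 and 1.66 counts per 1000 hepatocyte-made counts in wild-type controls, 2.86 and 2.11 after BDL, 1.62 and 2.59 in controls labelled deleted and 4.93 and 5.66 in BDL labelled deleted. Both BDL libraries labelled deleted lay above the other 6.

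**Figure D4:**
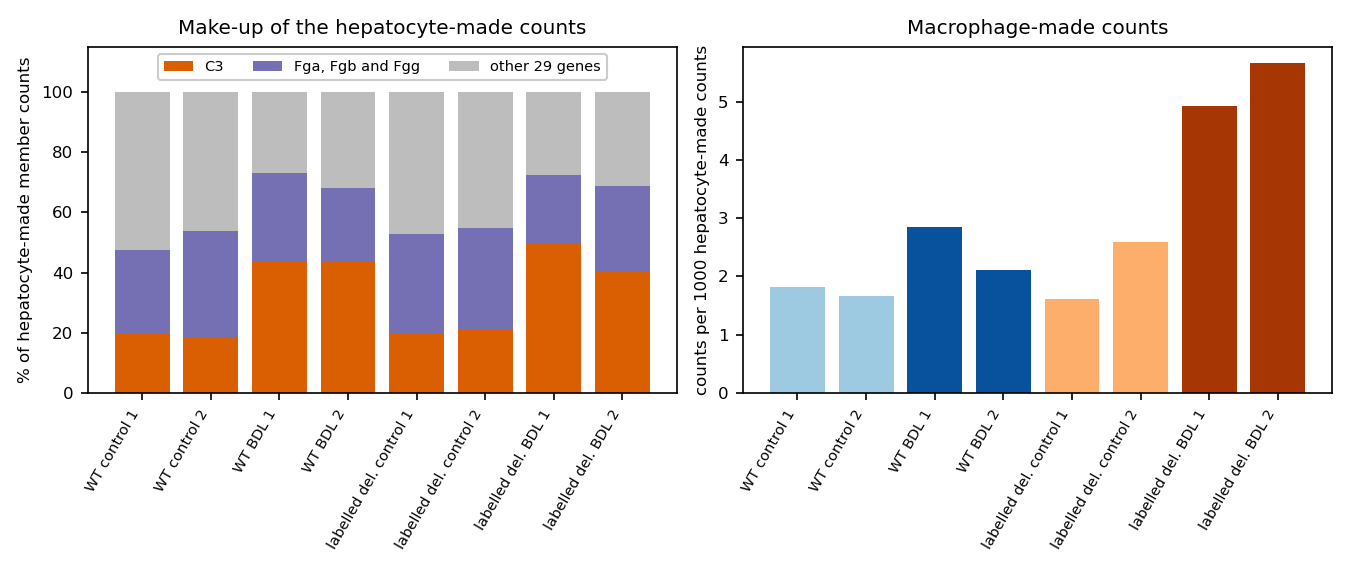
Left, the share of counts of the 33 hepatocyte-made genes held by C3, by the 3 fibrinogen chains and by the other 29 genes in each library, and right, counts of the 6 macrophage-made genes per 1000 counts of the hepatocyte-made genes. C3 holds 18.4% to 21.3% in the 4 controls and 40.0% to 49.8% in the 4 BDL libraries.

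Hepatocyte markers outside the list had a lower sum after BDL in wild type, while the sums overlapped in labelled-deleted libraries. The 17 in the table summed to 50689.6 to 56789 CPM in wild-type controls and 36874 to 46503 after BDL, and to 46787 to 54578 CPM in controls against 28865 to 51595 CPM after BDL in labelled-deleted libraries. Of 16 tested, 0 were called higher and 7 lower in wild type, and 0 higher and 2 lower in labelled-deleted libraries. Of all genes, 6.59% and 12.4% were called lower. Per 100 counts of these markers the same 27 genes had 44.5 and 51.5 counts in wild-type controls, 54.5 and 53.5 after BDL, 54.7 and 59.4 in controls labelled deleted and 55.1 and 55.7 after BDL, so relative to these markers their sum was higher after BDL in wild type and overlapped in labelled-deleted libraries. That sum includes the fibrinogen chains, which have high counts and did not move beyond their spread. Of the 27 genes, 22 in wild type and 26 in labelled-deleted libraries had a negative log2 fold change after BDL. The part of hepatocyte RNA in these results was not tested.

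The genotype comparisons set libraries labelled HO-1 deleted against wild type without and with BDL, and use the same libraries as the BDL comparisons. Lyz2, the Cre locus, also differed, at 242 to 934 counts in wild-type libraries and 3 to 10 in those labelled deleted. Effects of the floxed Hmox1 allele and of other differences between these genotypes cannot be told apart here. In controls 0 of 40 members were called by edgeR, where 0.191% of all genes were called (0.0778% higher and 0.113% lower), and 0 by DESeq2 or by limma on log2 FPKM (37 members tested with pseudocount 1). At an unadjusted p under 0.05 edgeR gave 1 member (F3, log2 fold change 1.24 ± 0.42, adjusted p = 0.550), DESeq2 gave 2 and limma 1. Of all 14147 genes, 968 were under that threshold by edgeR. Both labelled-deleted controls lay above both wild-type controls for 12 members and below them for 1, where 23.4% and 21.4% of all genes did. Of the 12, 10 were hepatocyte-made and 1 macrophage-made. The macrophage-made median was 0.37 and the hepatocyte-made median 0.15, and both turned negative with scaling by total counts (-0.093 and -0.39), which moved the median of all genes by -0.53. Over the 17 alternatives the medians ran from -0.35 to 0.67 and from -0.55 to 0.28. Relative to all genes they ran from -0.23 to 0.67 and from -0.33 to 0.26, so either sign occurred. The FPKM fits with a filter again left out C3ar1 and C5ar1.

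After BDL, 5 of the 6 macrophage-made members had a positive log2 fold change of the libraries labelled HO-1 deleted over wild type, but 0 of 40 members were called by edgeR, where 0.0636% of all genes were called (0.0141% higher and 0.0495% lower), and 0 by DESeq2 or by limma on log2 FPKM (37 members tested with pseudocount 1, without C3ar1 and C5ar1). At an unadjusted p under 0.05 there were 6 members by edgeR, 7 by DESeq2 and 1 by limma, where 1670 of all 14147 genes were under it by edgeR. The 6 by edgeR were C1qa (log2 fold change 1.26 ± 0.47, adjusted p = 0.354), C1qb (log2 fold change 1.02 ± 0.45, adjusted p = 0.420), C1qc (log2 fold change 1.25 ± 0.37, adjusted p = 0.276), C5ar1 (log2 fold change 1.06 ± 0.39, adjusted p = 0.331), Cfp (log2 fold change 0.75 ± 0.33, adjusted p = 0.406) and Serping1 (log2 fold change 0.87 ± 0.39, adjusted p = 0.417). The 3 C1q chains and C5ar1, 4 of the 6 macrophage-made genes, had both libraries labelled deleted above both wild-type libraries, where 17.8% of all genes were separated in this direction. Over all 40 members 5 were separated upward and 4 downward, the latter all hepatocyte-made, where 20.5% of all genes were separated downward. C3ar1 overlapped between the genotypes (log2 fold change -0.040 ± 0.37, 95% interval -0.84 to 0.76), and so did C3 (log2 fold change 0.038 ± 0.43, 95% interval -0.90 to 0.98). The macrophage-made median was 1.04 and stayed positive over the 17 alternatives (0.34 to 1.39), while the hepatocyte-made median of 0.047 took either sign (-0.76 to 0.31). Among these alternatives, the FPKM fits with a filter left out C3ar1 and C5ar1. In this comparison wild-type BDL replicate 1 was female by Xist and Ddx3y, and the libraries labelled deleted were not. The part of sex in these results was not tested.

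The test of the difference itself, the BDL effect in labelled-deleted libraries minus that in wild type, called 0 of 40 members by edgeR, where 0.00707% of all genes were called, and 0 by DESeq2 or limma (37 members tested with pseudocount 1). F11 was the only member at an unadjusted p under 0.05 by edgeR and by DESeq2, and limma gave 0, where 1316 of all 14147 genes were under it by edgeR. Its BDL effect was more negative in labelled-deleted libraries (log2 fold change -0.90 ± 0.33, adjusted p = 0.459), which had the higher control level. For C5ar1 the difference of log2 fold changes was 0.93 ± 0.61 (95% interval -0.41 to 2.27) and for C1qc 0.81 ± 0.52 (95% interval -0.34 to 1.97).

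Other genes of the same pathways were counted from a list of 50, of which 44 were tested. In wild type 12 rose and 1 fell after BDL, and in labelled-deleted libraries 16 rose and 2 fell, with medians of 0.021 and 0.23. The shares called among all genes were 11.8% higher and 6.59% lower in wild type, and 15.1% and 12.4% in labelled-deleted libraries. Plat, the tissue plasminogen activator gene, was at 0.534 and 0.354 CPM in wild-type controls and 6.34 and 2.62 after BDL (log2 fold change 3.34 ± 0.47, adjusted p = 0.000895). Labelled-deleted libraries had 0.427 and 0.360 CPM in controls against 8.43 and 7.98 CPM after BDL (log2 fold change 4.39 ± 0.49, adjusted p = 0.000183), and no BDL library reached a control. F13a1, the catalytic chain of factor XIII that myeloid cells make, rose with log2 fold changes of 3.59 ± 0.46 in wild type and 5.43 ± 0.50 in labelled-deleted libraries. F13b, the hepatocyte-made carrier of the same factor, was not called in either genotype. Itgam and Itgb2, the chains of complement receptor 3, rose with log2 fold changes of 2.77 ± 0.34 and 1.48 ± 0.26 in wild type and 3.52 ± 0.35 and 2.16 ± 0.26 in labelled-deleted libraries. Itgax, the alpha chain of complement receptor 4, rose with log2 fold changes of 2.45 ± 0.36 in wild type and 2.52 ± 0.37 in labelled-deleted libraries. A2m, a protease inhibitor of plasma, rose with 2.45 ± 0.53 and 4.07 ± 0.56 on the same scale. In wild type Colec10, a liver collectin of the lectin pathway, fell (log2 fold change -1.13 ± 0.33, adjusted p = 0.0363), and in labelled-deleted libraries the genes that fell were Cd55 and Tfpi2. Of these 44 genes, 0 were called between genotypes in either condition or in the difference of BDL effects.

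**Figure D5:**
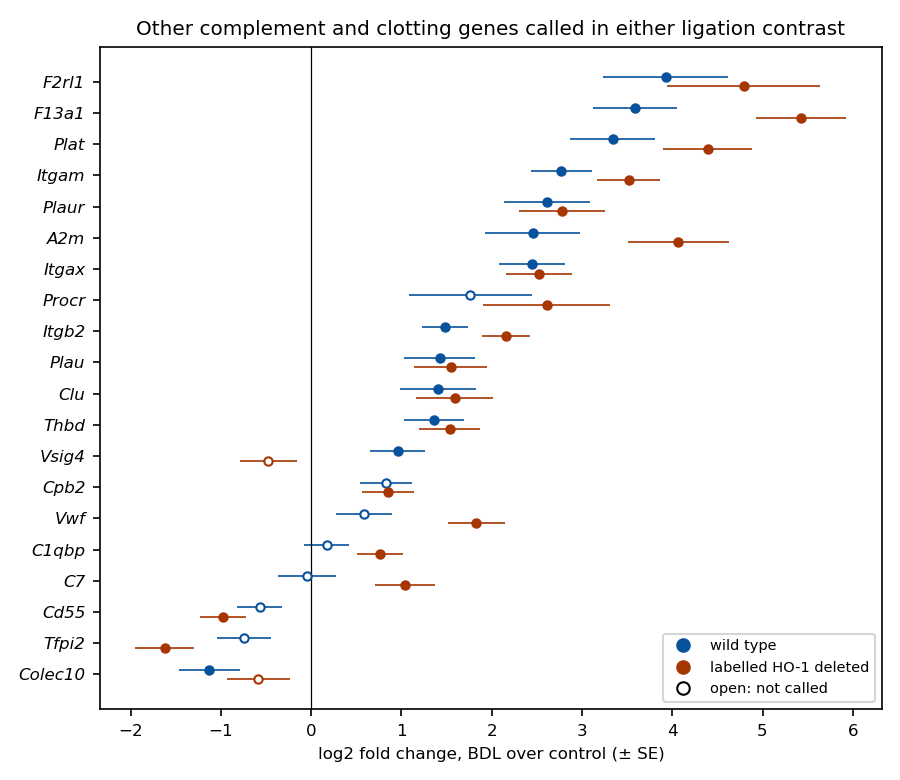
Log2 fold change of BDL over control, with SE, for the genes outside the 41 that were called in at least 1 genotype (blue for wild type, brown for libraries labelled HO-1 deleted, filled where called). F13a1 has the largest value in labelled-deleted libraries, and Colec10, Cd55 and Tfpi2 lie to the left of 0.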

How the data were processed

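RNA-seq of ribosome-associated RNA was analysed in 8 libraries, 2 in each of 4 groups. Reads were aligned with STAR 2.7.3a to mm10, and Cufflinks was used, per the submitters' processing notes. The authors deposited whole-number counts per gene, whose counter and strand setting are not given in the sources used here, and FPKM values per gene, which are normalised for transcript length and depth. The kit was strand-specific, per the labels' protocols.

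Counts were tested in 1 model of 4 group means with edgeR 4.0.16 (quasi-likelihood, TMM, filterByExpr) in R 4.3.3. Benjamini-Hochberg adjustment was over 14147 genes, the call was an adjusted p under 0.05, all tests were two-sided, 4 residual degrees of freedom remained and the biological coefficient of variation was 23.0%. The SE is the log2 fold change divided by the square root of F. RN45S stayed in the table of counts, and its share was tried as a covariate. Alternatives (17) were DESeq2 1.42.0, limma 3.58.1 on log2 FPKM, other scalings and filters, fits on the 2 groups compared and leaving out each library. The FPKM fits with a filter kept genes with a mean FPKM of at least 1, which left out C3ar1, C5ar1, F3 and Cfd. Intervals cover 95%.

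All 41 members may be named by rule, and of the other pathway genes those among the 6 with the smallest adjusted p in each BDL comparison and any that fell. One gene of that list is not reported here. Those that fell, and the C3 sequence, were added after their values were seen. The members and lists were chosen with earlier results of these data known.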

Additional observations from a re-analysis of the deposited data

How the results depend on the processing

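For BDL in wild type the 10 members called became 2 with scaling by total counts, and 2, 1 and 1 on log2 FPKM (pseudocount 1, pseudocount 0.1, and pseudocount 1 with no filter), and the 2607 genes called became 550 with scaling by total counts, and 348, 278 and 262 on log2 FPKM (pseudocount 1, pseudocount 0.1, and pseudocount 1 with no filter). In labelled-deleted libraries (genotype LysM-Cre:Hmoxflfl:Ribotag) the 17 members became 5 with scaling by total counts, and 4, 4 and 1 on log2 FPKM (pseudocount 1, pseudocount 0.1, and pseudocount 1 with no filter), and the 3895 genes became 918 with scaling by total counts, and 425, 454 and 229 on log2 FPKM (pseudocount 1, pseudocount 0.1, and pseudocount 1 with no filter). Leaving out 1 library at a time gave 3 (without wild-type control replicate 1) to 13 (without labelled-deleted BDL replicate 2) members and 881 (without wild-type control replicate 1) to 2797 (without labelled-deleted BDL replicate 2) genes in wild type, and 8 (without labelled-deleted control replicate 1) to 19 (without labelled-deleted BDL replicate 2) members and 1644 (without labelled-deleted control replicate 1) to 4392 (without wild-type BDL replicate 1) genes in labelled-deleted libraries. Between genotypes in controls the 27 genes became 99 with DESeq2, 44 with total counts, 126 with no filter, 17 with RN45S share in the model and 65 in a fit on those 2 groups, with 12 (without wild-type control replicate 1) to 52 (without wild-type BDL replicate 1) on leaving out a library. After BDL the 9 genes became 149, 95 and 206 with DESeq2, total counts and no filter, and 18 and 37 on log2 FPKM with pseudocounts 1 and 0.1, with 1 (without labelled-deleted BDL replicate 1) to 306 (without wild-type BDL replicate 1) on leaving out a library. For the difference of BDL effects the 1 gene became 79, 7 and 138 with DESeq2, total counts and no filter, 5, 6 and 2 in the FPKM fits and 0 with the RN45S share, with 0 (without wild-type control replicate 2) to 195 (without wild-type BDL replicate 1) on leaving out a library. Members called in the genotype comparisons and the difference of BDL effects numbered 0 in each alternative run (17, and 16 for the difference of BDL effects, which has no fit on 2 groups), those without 1 library included. The cause was not tested. By Xist and Ddx3y, wild-type BDL replicate 1 was the only female library, so leaving it out also takes the mix of sexes out of that group. Over single members, 3330 comparisons of an alternative with the fit reported gave 0 changes of sign for a called value, 171 lost calls and 43 gained ones. No paired analysis was possible because the labels carry no replicate numbers that groups share. With 2 libraries a group and 4 residual degrees of freedom, a change that was not called may still be present, and F3, C3ar1 and C5ar1 rest on few counts.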

Other observations

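Some proteins of these pathways are built from chains in fixed proportion, and the authors' FPKM allow the levels of their genes to be set against each other. The C8 protein holds 1 each of its alpha, beta and gamma chains. The ratio of C8a to C8b FPKM was 1.72 and 2.22 in wild-type controls, 4.67 and 4.56 in wild-type BDL, 2.98 and 2.59 in labelled-deleted controls and 7.24 and 3.73 in labelled-deleted BDL, so in each genotype both BDL libraries lay above both controls. C8g over C8b was 0.609 and 0.585 in wild-type controls, 0.814 and 0.880 in wild-type BDL, 0.505 and 0.386 in labelled-deleted controls and 1.14 and 1.06 in labelled-deleted BDL. Among the C1q chains, C1qb over C1qc was 0.851 and 0.817 in wild-type controls, 0.857 and 0.522 in wild-type BDL, 0.898 and 0.933 in labelled-deleted controls and 0.659 and 0.590 in labelled-deleted BDL. Of the fibrinogen chains, Fgb over Fgg was 1.20 and 0.847 in wild-type controls, 0.939 and 0.834 in wild-type BDL, 1.20 and 1.30 in labelled-deleted controls and 1.40 and 1.19 in labelled-deleted BDL, and Fga over Fgg was 0.814 and 0.700 in wild-type controls, 0.605 and 0.741 in wild-type BDL, 1.02 and 0.924 in labelled-deleted controls and 1.18 and 0.857 in labelled-deleted BDL. These ratios were not tested.

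Marker lists of liver cells outside the myeloid lineage were summed as well. The 6 cholangiocyte markers summed to 23.0 to 34.3 CPM in wild-type controls, 201 to 497 CPM after BDL, 24.4 to 31.3 CPM in labelled-deleted controls and 439 to 1137 CPM after BDL, and all 6 rose in both genotypes. The 5 stellate cell markers summed to 155 to 183, 646 to 723, 171 to 217 and 1217 to 1669 CPM in the same order, with 2 of 5 called higher and 0 lower in each genotype. Of all genes, 11.8% were called higher in wild type and 15.1% in labelled-deleted libraries. The 4 endothelial markers summed to 357 to 395, 259.8 to 396, 278 to 343 and 314 to 459.8 CPM, which overlap between control and BDL in both genotypes, and 0 of 4 were called. Their part in the results for complement and coagulation genes was not tested.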
